A study of Mus musculus with 4 samples.

Results

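Interferon-stimulated genes are the effector and sensor genes that cells switch on when type I interferon reaches them. The 34 genes described here were named one by one in a list of such effectors and sensors, with the IRF and STAT transcription factors left out, and they were looked up by symbol among the 41324 genes of the deposited count table. All 34 were found, and 23 of them passed the filter on low counts (on average 1 or more CPM, which is a gene's count rescaled so that libraries of unequal depth can be set side by side), as did 10837 genes of the whole table. The cells were RAW264.7, a mouse macrophage-like line. They received 10 µg/ml actinomycin D (ActD), which binds DNA and blocks transcription, and RNA was sequenced from untreated cells (0 h) and after 2, 4 and 6 h of the drug, with 1 library at each time. Its purpose was to derive the half-life of every mRNA after transcription stops. Every library came from the same line. The labelled material is cytoplasmic RNA, but the extraction is described only by an RNA purification kit and no step that separates the cytoplasm is stated, so it is not known whether nuclear RNA is included. Ribosomal RNA was removed before libraries were made with a directional kit. No interferon or infection was part of the design, so the values describe the genes' basal transcripts. Nothing in the labels tells whether each time was a culture of its own.

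Type I interferon binds a receptor at the cell surface, whose kinases JAK1 and TYK2 phosphorylate transcription factors in the cytoplasm. These move to the nucleus and bind a promoter element, the interferon-stimulated response element, that starts transcription of the interferon-stimulated genes. Their products bind viral RNA, degrade or edit RNA, block entry and assembly of viruses, attach the ubiquitin-like protein ISG15 to other proteins, and sense nucleic acids to start a further round of interferon. Macrophages keep some of these genes transcribed at a low level without infection.

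Libraries held between 12762100 gene counts (6 h) and 70289647 (4 h), with 35669434 in untreated cells and 38260540 at 2 h, so counting error was greatest at 6 h. The 34 genes together took 0.0888% of the counts in untreated cells, 0.108% at 2 h, 0.105% at 4 h and 0.0956% at 6 h. All 10 macrophage markers examined were present in every library, with a summed level of 4006 to 5230 CPM, whereas the summed markers of B cells, T cells, neutrophils, fibroblasts, endothelium and erythroid cells stayed at or under 1.87 CPM and the 5 epithelial markers had 0 counts. In bulk RNA, fewer cells and less RNA per cell cannot be told apart. Levels are given as CPM with TMM factors, under which the bulk of genes has no slope. A transcript that "rose" on this scale may have gained, stayed or declined more slowly than most genes, and these cannot be told apart. Intervals are exact 95% intervals and cover counting error only, since no time had a replicate, and p-values measure only the spread of the 4 libraries around the fitted line or curve.

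The rule for the list used names, not sequence, and the promoters were searched for the response element as a feature that the members might share. RefSeq's promoter table (GRCm38.p6, 250 bases before to 50 bases after each start) held 26 of the 34 genes. The interferon-stimulated response element was searched on both strands as GAAA followed, after any 2 bases, by another GAAA, so that it reads as a pair of TTTC where it lies on the other strand. It was present in 15 of these 26 genes (57.7%), against 3.99% of all 27025 genes with a promoter in the table. The table covers only 72.0% of the tested genes, too few for a comparison of motif with decay, so that check is void and the shares are a description. The windows of 5 genes show how the copies are arranged, with the motif in capitals. Isg15, whose product is the ubiquitin-like modifier itself, had 3 overlapping copies (chr4:156200871-156200900, minus strand). Ifit1, which binds foreign RNA ends, had 2 separate copies (chr19:34640785-34640814, plus strand). Oas1a and Bst2 each had 2 overlapping copies (chr5:120907523-120907552 and chr8:71537580-71537609, both minus strand), and Ifitm3 had 2 separate ones (chr7:141010714-141010743, minus strand).
Isg15 promoter: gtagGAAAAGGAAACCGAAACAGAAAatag
Ifit1 promoter: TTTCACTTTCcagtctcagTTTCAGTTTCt
Oas1a promoter: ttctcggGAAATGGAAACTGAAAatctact
Bst2 promoter: attccagGAAAATGAAACTGAAAggctgca
Ifitm3 promoter: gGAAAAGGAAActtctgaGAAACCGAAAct
Genes with this element ranged from Ifitm3, the most abundant member per length of exon, to members near the detection limit such as Gbp2, while the promoters of Trim25, Samhd1 and Adar did not hold these letters. The second interferon element, the gamma-activated site, was searched as TTCNNNGAA. It was present in 9 of the 26 genes (34.6%), against 9.55% of all 27025 genes with a promoter in the table. A match is a description of these letters and not a measured binding site.

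In untreated cells the levels of the 34 genes ranged widely per length of exon. The most abundant per length were Ifitm3, at 153 CPM per kb of exon, Ifitm2 at 76.8, Bst2 at 39.2 and Trim25 at 38.7. The first of these encode interferon-induced transmembrane proteins, which hinder fusion of viruses with endosomes, and Bst2 encodes tetherin, which holds budding virus particles at the cell surface. Induction was not measured here, and members known as inducible lay at many levels. Oas1a had 11.1 CPM per kb in untreated cells, Oasl1 10.6, Oas3 8.45 and Oas2 4.56. Other classical inducible genes lay lower. Isg15 had 1.39 CPM per kb in untreated cells, Ifit1 0.272, Rsad2 0.152, Mx2 0.127, Ifit3 0.0942 and Mx1 0.00869. The 3 libraries after ActD kept this broad order, with Ifitm3 first and Ifitm2 second in each of the 4 libraries.

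**Figure D1:**
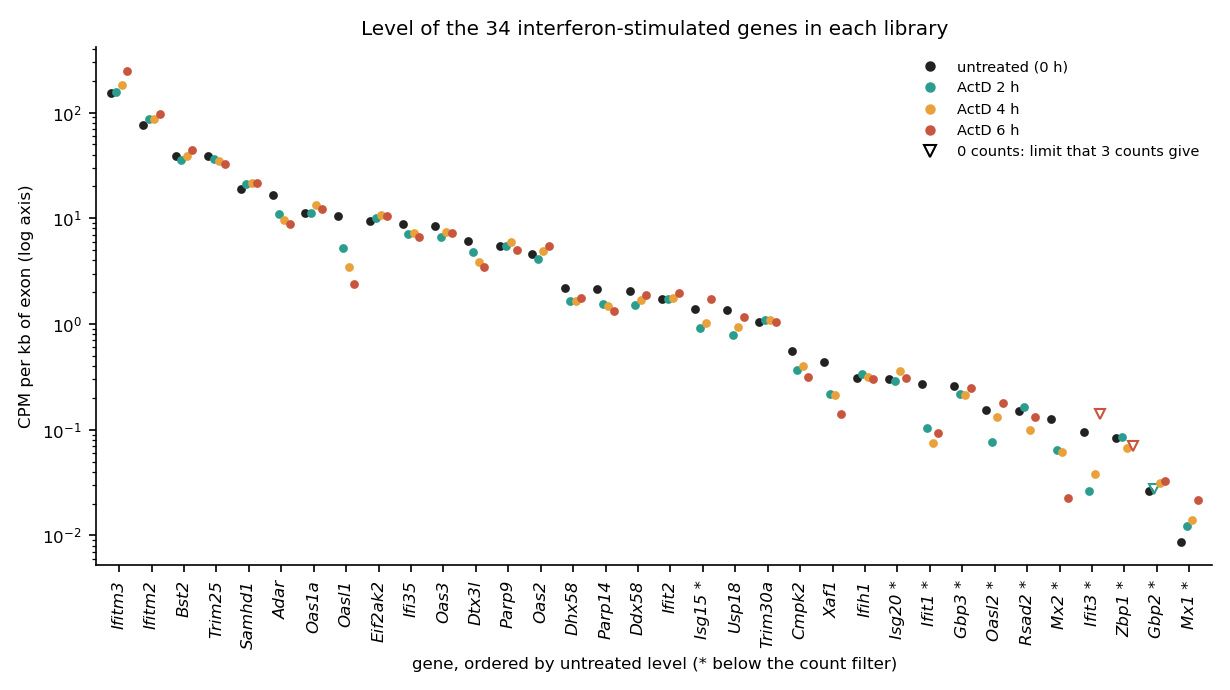
Level of each of the 34 genes in the 4 libraries, in CPM per kb of exon on a log axis, ordered by the untreated level (black, 0 h) with 2, 4 and 6 h of ActD beside it. Open triangles mark a library with 0 counts at the limit that 3 counts allow, and asterisks mark the 11 genes below the count filter. Ifitm3 stood highest at 153 CPM per kb in untreated cells, and the points of Oasl1 descend at every step, to 2.39 CPM per kb at 6 h.

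Along the 6 h of ActD, 19 of the 23 interferon-stimulated transcripts that could be tested passed the line test in neither direction. The falls numbered 3 (13.0%), Oasl1, Adar and Dtx3l, and 1 member rose (4.35%), Ifitm3. Over all tested genes, 16.8% fell and 8.03% rose (edgeR's quasi-likelihood line test, slopes in log2 per h, Benjamini-Hochberg adjusted p under 0.05), so the members' counts were near or below the background. At an unadjusted p under 0.05, 8 of 23 members and 5083 of 10837 genes passed. The members' median slope was −0.014 log2 per h (interquartile range −0.083 to 0.030), against 0.0014 (−0.10 to 0.051) over all tested genes. At 6 h the median member stood at 91.7% of its untreated level, against 100.5% for all tested genes. Only Oasl1 and Xaf1 stood under 50% at 6 h, 2 of 23 members (8.70%), against 1753 of all tested genes (16.2%). Xaf1 had 8 counts at 6 h, with an interval of 13.3 to 67.3%. It passed the filter only through its untreated value, so its place in this count is no support. Without the filter, which admits all 34 members, the same 3 fell (8.82%) and the same 1 rose (2.94%), against 11.9% and 4.52% of 18634 genes. Without the 4 h library, the deepest, none of the 4 passed, and over all tested genes only 233 fell and 12 rose. The loss of calls was thus not particular to the members. Their slopes were then −0.35 for Oasl1 (adjusted p = 0.0506), −0.14 for Adar (0.0912), −0.13 for Dtx3l (0.0982) and 0.12 for Ifitm3 (0.0837). With all libraries these slopes were −0.36, −0.14, −0.14 and 0.12 in the same order.

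**Figure D2:**
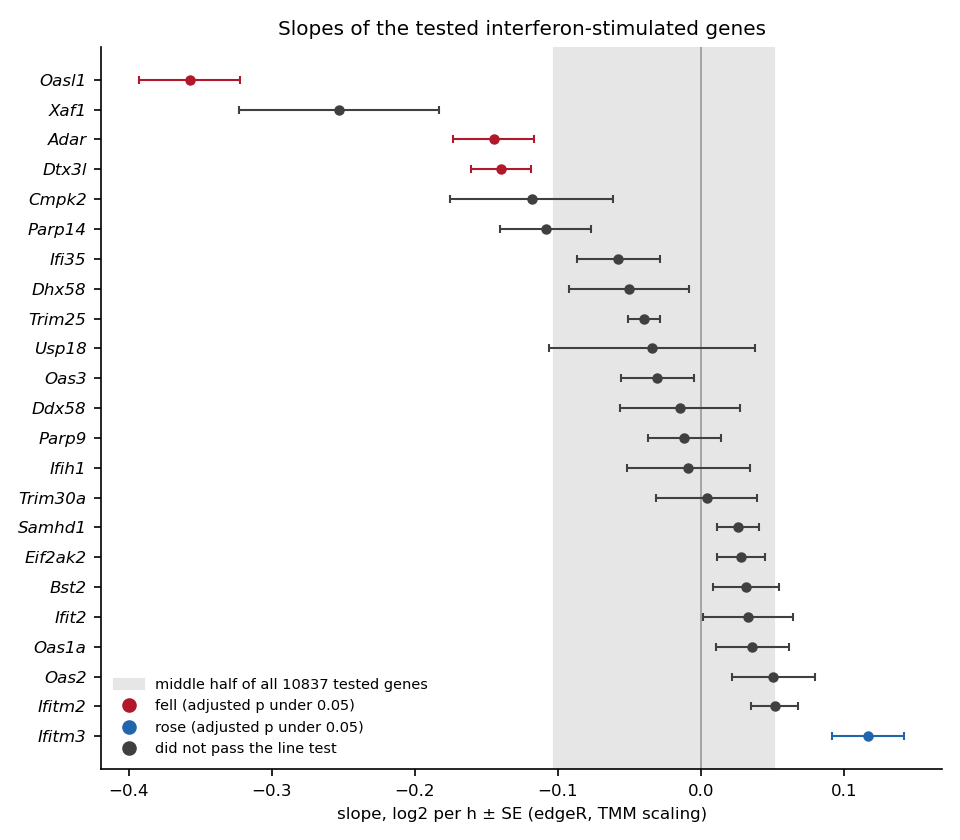
Slope of log2 level on time for the 23 members past the filter, in log2 per h with its standard error (edgeR, TMM scaling), steepest fall at the top. Red points fell, the blue point rose, and the grey band holds the interquartile range of all 10837 tested genes. Oasl1 at −0.36, Adar and Dtx3l near −0.14 lay left of the band and Ifitm3 at 0.12 lay right of it.

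Oligoadenylate synthetases make the small messenger that activates RNase L, which then cuts viral and cellular RNA. Oasl1 belongs to this family by sequence but lacks the enzyme activity, and in mice it holds back translation of Irf7 mRNA. It had the steepest slope of all tested members. Its level was 27.5 CPM in untreated cells, 13.8 at 2 h, 9.07 at 4 h and 6.22 at 6 h. Each library thus lay below the one before it, with the largest step in the first 2 h. At the end 22.6% of the untreated level was left (17.6 to 28.6%), with a slope of −0.36 ± 0.035 log2 per h (SE, edgeR adjusted p = 0.0158). Oasl1 (chr5:114923240-114937915, plus strand, GRCm38) overlaps an antisense gene, Gm13822, and with the strand setting of the counting unstated, reads of that gene cannot be told apart from its own.

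The other tested members of the family passed the line test in neither direction, and no difference in slope from Oasl1 was tested. Oas1a had 21.0 CPM in untreated cells, 21.2 at 2 h, 25.1 at 4 h and 23.2 at 6 h, with a slope of 0.036 log2 per h (adjusted p = 0.311). Oas2 had 20.3, 18.2, 21.7 and 24.3 CPM in the same order (slope 0.051, adjusted p = 0.224). Both ended above their untreated level on the TMM scale, at 111% and 119.8%, although both slopes turned negative when the libraries were scaled on ribosomal protein mRNAs or on the deposited divisors. Without the untreated library, Oas2 passed the line test as a rise (slope 0.11, adjusted p = 0.0386). Oas3, the largest of the enzymes, lay between 47.4 and 59.8 CPM and stood at 84.9% at 6 h (77.4 to 93.1%). Oasl2, which unlike Oasl1 keeps the enzyme activity and lies 11005 bases from it, had only 30, 21, 64 and 14 counts and fell below the filter. Its level at 6 h was 116% of the untreated one with a wide interval (56.9 to 226%), whereas Oasl1 stood at 22.6%. Oas1a has a near-identical neighbour in Oas1g, and no source used here states how reads shared by both were counted.

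Of the double-stranded RNA enzymes, Adar fell and Eif2ak2 passed the line test in neither direction on the TMM scale. Adar encodes the deaminase that turns adenosine into inosine in double-stranded RNA and so keeps the cell's own RNA from triggering sensors, and Eif2ak2 encodes PKR, the kinase that stops translation when it binds such RNA. Adar had 133 CPM in untreated cells, 88.7 at 2 h, 78.3 at 4 h and 72.0 at 6 h. Its largest step came by 2 h, to 66.5% of the untreated level (63.6 to 69.5%), and later steps were smaller, ending at 53.9% (50.1 to 58.0%). Per h the slope was −0.14 ± 0.028 log2 (SE, edgeR adjusted p = 0.0353). Without the untreated library it was −0.076 (adjusted p = 0.0129), so the size of the slope rests on that library. The bend, which is positive where a fall slows with time, passed too (adjusted p = 0.00692). Adar (chr3:89715022-89753446, plus strand) overlaps Chrnb2 on the other strand. Eif2ak2 had 48.0, 51.5, 54.8 and 53.4 CPM at 0, 2, 4 and 6 h and did not pass (slope 0.028, adjusted p = 0.241). Its slope was negative, at −0.028 and −0.059, under ribosomal protein scaling and the deposited divisors.

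Parp9, Parp14 and Dtx3l act in ADP-ribosylation. Parp9 and Dtx3l, a ubiquitin ligase, form a complex that modifies histones, and Parp14 adds single ADP-ribose units. Dtx3l had 34.6 CPM in untreated cells, 27.3 at 2 h, 21.9 at 4 h and 19.6 at 6 h, a descent at every step. It ended at 56.7% of the untreated level (49.1 to 65.3%), with a slope of −0.14 ± 0.021 log2 per h (SE, edgeR adjusted p = 0.0243). Parp9, its neighbour, had 26.8, 26.9, 28.9 and 24.6 CPM, no library standing far from the others (slope −0.011, adjusted p = 0.740). The difference between both slopes was not tested. The pair lies head to head on chromosome 16, Parp9 at chr16:35938470-35972605 on the plus strand and Dtx3l at chr16:35926511-35939151 on the minus strand, and their ends overlap by 682 bases, where reads cannot be told apart without the strand. Parp14, on the same chromosome, overlaps Gm49730 on its own strand. It had 20.1, 14.3, 13.8 and 12.4 CPM and stood at 61.9% at 6 h (51.5 to 74.1%). Most of its difference from untreated cells was present at 2 h, its slope of −0.11 missed the line test (adjusted p = 0.0673), and it passed the joint test for any departure from a flat course on the lower side (adjusted p = 0.00345). Without the untreated library the slope was −0.048 (adjusted p = 0.489).

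The 3 membrane restriction factors were, per length of exon, also the most abundant members at 6 h, and Ifitm3 was the 1 member that rose. Ifitm3 had 104 CPM in untreated cells, 105 at 2 h, 124 at 4 h and 169 at 6 h. Untreated and 2 h libraries were alike and the last was the highest, at 163% of the untreated level (154 to 172%). Its slope was 0.12 ± 0.025 log2 per h (SE, edgeR adjusted p = 0.0401) with an upward bend (adjusted p = 0.00251). The call rests on the scaling and on the 6 h library: the slope was 0.062 (adjusted p = 0.259) with ribosomal protein scaling, 0.030 (0.523) with the deposited divisors, 0.14 (0.226) with total counts and 0.064 (0.0977) without the 6 h library. Ifitm2, its paralog, had 50.3, 57.2, 57.0 and 64.0 CPM and stood at 127% at 6 h (117 to 139%). It missed the line test (slope 0.052, adjusted p = 0.0796) and passed the joint test on the higher side (adjusted p = 0.0204). Bst2 had 35.4, 32.2, 35.4 and 39.9 CPM, lowest at 2 h and highest at 6 h, and also passed the joint test (adjusted p = 0.0452) with a mean fitted change of only 0.035 log2. Under ribosomal protein scaling and the deposited divisors the slopes of Ifitm2 and Bst2 were below 0. Ifitm2 and Ifitm3 lie 53598 bases apart on chromosome 7 and are similar in sequence, so reads could be split between them. Ifitm2 also overlaps a protein-coding gene on its own strand, Gm45717, and how shared reads were counted is not stated.

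On the TMM scale with the filter at 1 CPM, no member of the ISG15 system and the TRIM ligases fell or rose. Only Trim25 departed from a flat course there. Trim25 encodes the ubiquitin ligase that activates RIG-I and also attaches ISG15, and Usp18 encodes the protease that removes ISG15 and dampens the interferon receptor. Trim25 had 222 CPM in untreated cells, 209 at 2 h, 199.7 at 4 h and 188 at 6 h, lower at each time but by little, ending at 84.4% (80.4 to 88.5%). Its slope of −0.040 ± 0.011 missed the line test (edgeR adjusted p = 0.0628) and it passed the joint test on the lower side (adjusted p = 0.00379). Trim25 passed the line test as a fall with filters at 5 and 10 CPM (edgeR adjusted p = 0.0471 and 0.0375). It also passed with DESeq2's Wald test (0.0143). Usp18 had 3.82, 2.20, 2.64 and 3.27 CPM. Its 2 h level was 57.6% of the untreated one (43.4 to 76.2%) and its 6 h level 85.8% (58.4 to 124%), so it was low in the middle of the course. Neither the line test (adjusted p = 0.730) nor the bend test (adjusted p = 0.0651) was passed. Usp18 passed the bend and joint tests without the filter (edgeR adjusted p = 0.0316 and 0.0308) and with ribosomal protein scaling (0.0438 and 0.0219). With DESeq2 size factors it passed neither (0.0552 and 0.0512). Without the untreated library its slope turned positive, at 0.14 (adjusted p = 0.221). Trim30a, which restrains NF-kB signalling in mouse macrophages, had 4.28, 4.46, 4.47 and 4.34 CPM. Isg15 itself had 32, 30, 59 and 16 counts, under the filter, at 124% of the untreated level at 6 h (63.8 to 234%).

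**Figure D3:**
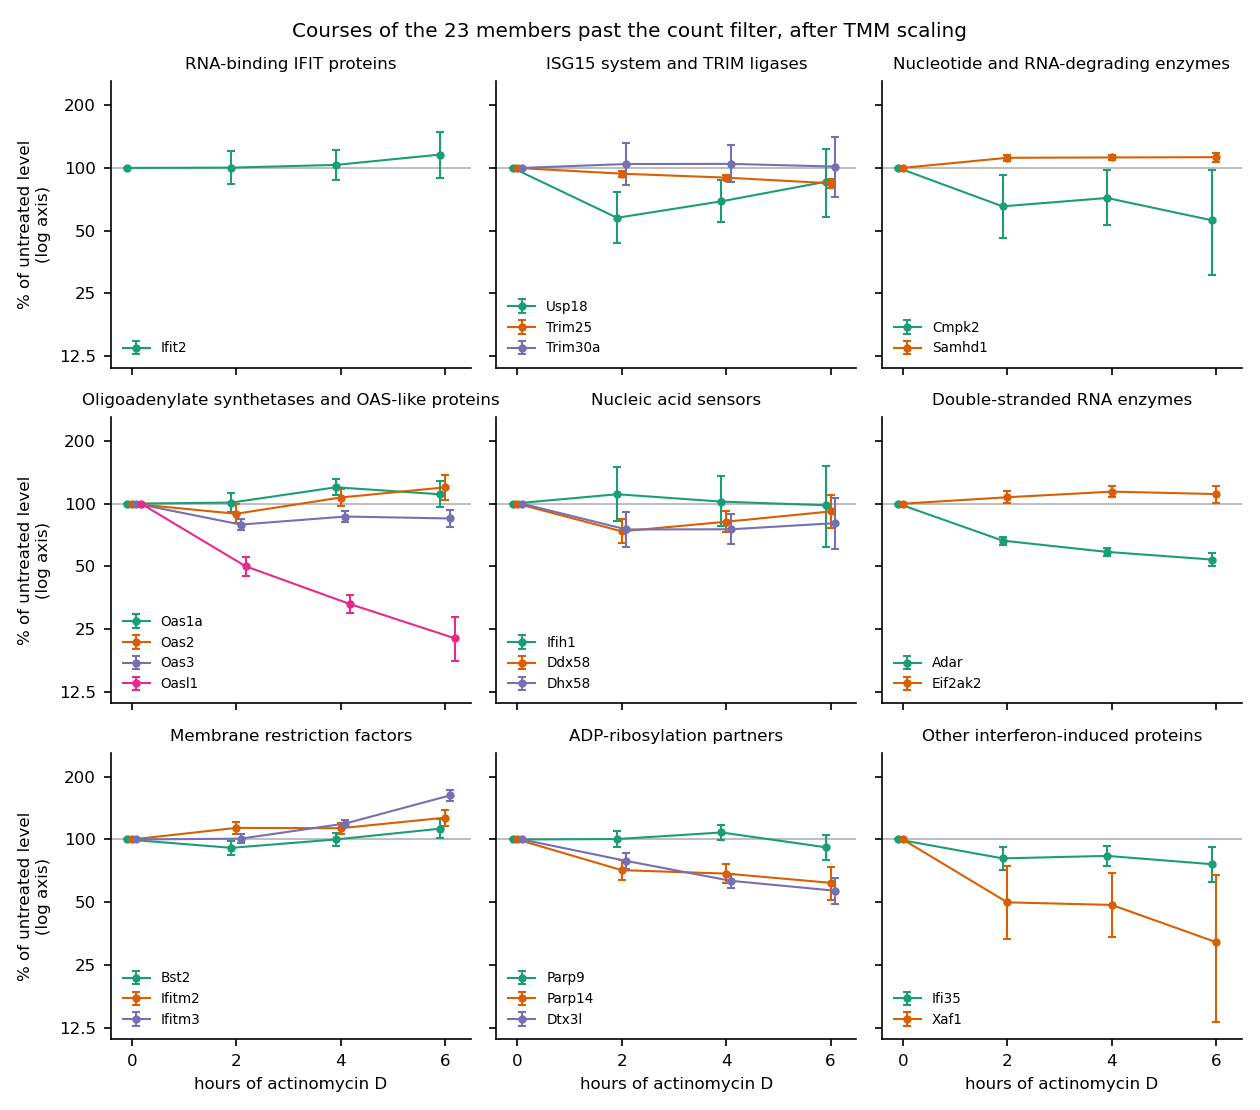
Level at 0, 2, 4 and 6 h of ActD as percent of the untreated level (log axis, TMM scaling) for the 23 members past the filter, with 1 panel per role and exact 95% intervals of counting error as bars. Oasl1 went down to 22.6% at 6 h while Oas1a, Oas2 and Oas3 stayed between 79.4 and 119.9%, and Ifitm3 stood at 163% at 6 h. The Dynamin-family GTPases have no panel because none of them passed the filter.

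The nucleotide and RNA-degrading enzymes held no member that fell or rose. Samhd1 encodes the hydrolase that drains deoxynucleotides and so limits retroviruses in macrophages. It had 174 CPM in untreated cells, 195 at 2 h, 195.5 at 4 h and 196.1 at 6 h, a small step up by 2 h and then level. It missed the line test (slope 0.026, adjusted p = 0.22) and passed the joint test on the higher side (adjusted p = 0.0172), but with the deposited divisors its slope was −0.061 and past the line test (adjusted p = 0.0204). Without the untreated library its slope was 0.0024 (adjusted p = 0.956). Cmpk2, a mitochondrial nucleotide kinase, had 2.34, 1.53, 1.67 and 1.31 CPM and stood at 56.1% at 6 h (30.4 to 97.5%), with a slope of −0.12 (adjusted p = 0.169). Its neighbour Rsad2, which encodes viperin, had 20, 31, 33 and 7 counts, and Isg20, an RNA exonuclease, had 17, 23, 51 and 7. Both lay under the filter, at 87.1% (31.1 to 214%) and 102% (35.9 to 260%) of their untreated levels at 6 h.

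The 3 nucleic acid sensors past the filter passed neither the line, the bend nor the joint test on the TMM scale with the filter at 1 CPM. Ddx58 encodes RIG-I and Ifih1 encodes MDA5, both of which detect viral RNA in the cytosol, and Dhx58 encodes LGP2, which modulates them. Ddx58 had 14.5 CPM in untreated cells, 10.7 at 2 h, 11.9 at 4 h and 13.3 at 6 h. Dhx58 had 7.10, 5.34, 5.35 and 5.73 CPM. Both were lowest at 2 h, at 73.7% (64.5 to 84.1%) and 75.2% (62.2 to 91.0%) of the untreated level, and higher at 6 h, at 91.8% and 80.7%. Ddx58 lay near the threshold of the bend and joint tests (adjusted p = 0.0606 and 0.0637) and passed both with DESeq2 size factors (0.0465 and 0.0463), with a filter at 5 CPM (0.0455 and 0.0451) and with no filter (0.0317 and 0.0373). Ifih1 lay between 2.46 CPM at 6 h and 2.78 CPM at 2 h, with no library standing apart. Zbp1, a sensor of Z-form nucleic acids, had 9, 13, 18 and 0 counts, and 0 counts at 6 h allow up to 0.246 CPM, close to its 0.296 CPM in untreated cells.

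The IFIT proteins bind viral RNA ends or keep them from translation. Ifit2 was the one member of the group past the filter, with 6.71 CPM in untreated cells, 6.73 at 2 h, 6.94 at 4 h and 7.78 at 6 h (slope 0.033, adjusted p = 0.438). Ifit1, its neighbour on chromosome 19, had 22, 12, 15 and 3 counts, which are 0.724, 0.278, 0.198 and 0.246 CPM. Its 4 h level was 27.3% of the untreated one (13.2 to 55.1%), so the untreated library was the highest, while the interval at 6 h reached 113%. Without the filter Ifit1 missed the line test and passed the joint test on the lower side. Ifit3 had 5, 2, 5 and 0 counts, too few to place, and has a near-identical copy in Ifit3b.

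The remaining members were Xaf1 and Ifi35 and the dynamin-family GTPases. Xaf1, which counters inhibitors of apoptosis, had 2.04 CPM in untreated cells, 1.02 at 2 h, 0.989 at 4 h and 0.655 at 6 h. All 3 treated libraries lay below the untreated one, and the 6 h level was 32.1% (13.3 to 67.3%) from 8 counts. Xaf1 passed the filter only through its untreated value, since the treated libraries alone averaged 0.948 CPM on total counts, so its slope and its joint call rest on the library where it is high. The slope of −0.25 ± 0.070 missed the line test (edgeR adjusted p = 0.0604), and the joint test placed it lower (adjusted p = 0.0189). Without the untreated library the slope was −0.11 (adjusted p = 0.586), without the 2 h library −0.27 (0.0484), without the 4 h library −0.28 (0.161) and without the 6 h library −0.26 (0.119). Ifi35, a partner of Nmi in innate signalling, had 15.2, 12.3, 12.6 and 11.5 CPM and did not pass (slope −0.058, adjusted p = 0.184). The GTPases Mx1, Mx2, Gbp2 and Gbp3, which attack viral capsids or pathogen vacuoles, had 179 counts between them over all libraries. Gbp3 had 26, 31, 53 and 10 counts and Mx2 had 14, 10, 17 and 1, while Gbp2 and Mx1 had at most 6 in any library. RefSeq's gene table annotates Mx1 in the reference strain as a transcribed pseudogene.

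When any departure from a flat course was asked for, more members passed. The joint test placed 6 of 23 members lower (26.1%), which were Oasl1, Adar, Dtx3l, Parp14, Trim25 and Xaf1. It placed 4 higher (17.4%), which were Ifitm3, Ifitm2, Samhd1 and Bst2. Xaf1 passed the filter only through its untreated value, so its lower call is no support. Over all tested genes the joint test placed 36.1% lower and 31.6% higher (edgeR, adjusted p under 0.05). Both shares of the members thus lay below the background. An upward bend was called in 2 members (8.7%), Adar and Ifitm3, against 18.0% of all genes, and a downward bend in 0 members, against 10.6%. The bend of Adar describes a fall that slowed, and that of Ifitm3 a course that was level to 2 h and then higher. The higher calls depended on the scaling, with 7 members higher for total counts, 1 for ribosomal protein mRNAs and 0 for the deposited divisors, and with a filter at 10 CPM 1 of them remained, Ifitm3. The lower calls numbered 3, 12 and 19 under these scalings and 10 without the filter. Upward bends numbered 0, 7 and 9, and 4 without the filter. Shares of all genes were not counted for the bend and joint tests in these settings. These counts therefore cannot be set against a background.

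How much of a member's course is called a fall depends on what is taken as unchanged. Relative to TMM, scaling on total counts moved every gene up by 0.17 log2 at 6 h, scaling on 80 ribosomal protein mRNAs moved it by −0.34, and the divisors that the authors' normalized columns rest on moved it by −0.52. With total counts only Oasl1 of the members fell, while 1318 of all 10837 tested genes fell and 205 rose. Adar and Dtx3l kept negative slopes of −0.12 each without passing (adjusted p = 0.305 and 0.25). With ribosomal protein scaling 4 fell, Oasl1, Adar, Dtx3l and Trim25, and 0 rose, while 2464 of all genes fell and 138 rose. With the deposited divisors 10 of 23 fell, adding Xaf1, Parp14, Parp9, Ifi35, Samhd1 and Eif2ak2, and 0 rose, while 4963 of all genes fell and 72 rose. Oasl1 fell and had the steepest slope of the members under each of the 4 scalings, from −0.33 to −0.45 log2 per h. Ifitm3 had the highest slope under each, from 0.030 to 0.14.

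**Figure D4:**
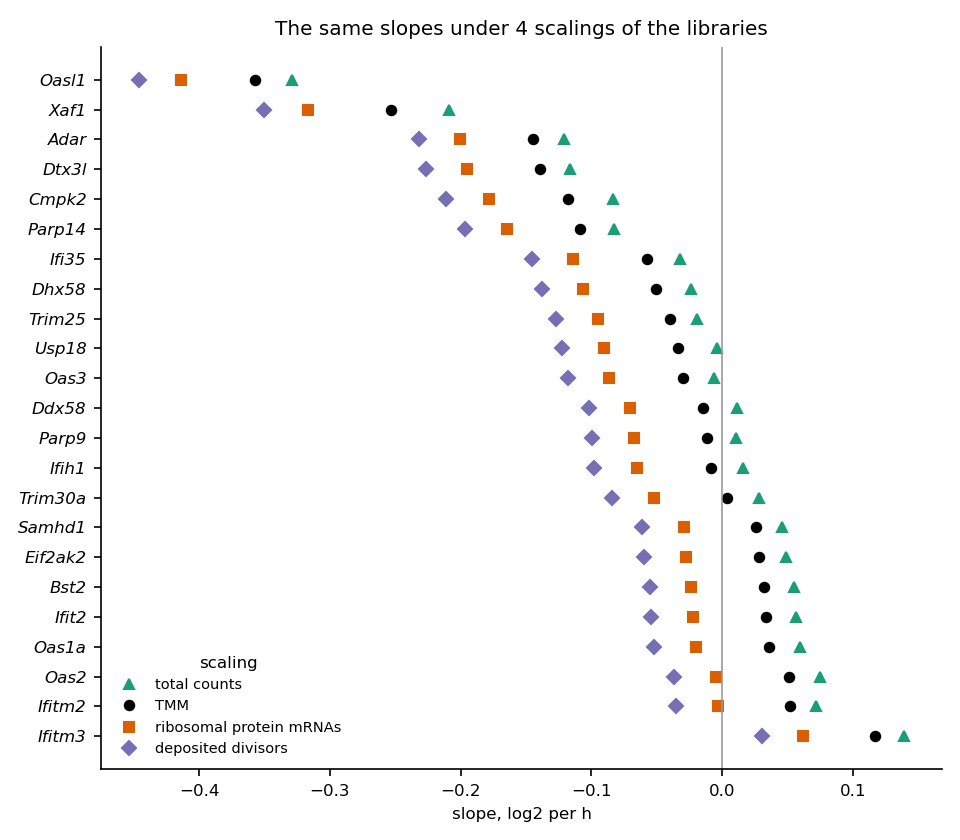
Slope of each of the 23 members past the filter, in log2 per h, under 4 ways of scaling the libraries. Triangles are total counts, circles TMM, squares ribosomal protein mRNAs and diamonds the deposited divisors. The order of the members from Oasl1 to Ifitm3 is nearly the same in each, while the whole set shifts, so that the members from Trim30a to Ifitm2 lie above 0 with TMM and below 0 with the last 2 scalings.

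The authors' deposited table gives a half-life per gene, whose fitting no source used here describes. Among the 23 members past the filter the median half-life in the authors' deposited table was 6.19 h (interquartile range 3.59 to 10.1 h), against 7.43 h (3.47 to 15.8 h) for the 9848 tested genes with a positive value. In the authors' deposited table the shortest among these members were 1.85 h for Oasl1, 2.32 h for Xaf1 and 2.99 h for Adar, followed by Usp18 at 3.25 h and Dtx3l at 3.48 h. The longest in the authors' deposited table were 15.0 h for Ifitm2, 14.9 h for Oas1a, 14.5 h for Ifitm3, 13.9 h for Samhd1 and 13.8 h for Eif2ak2. The order resembles that of the slopes only in part, although both are made from the same counts. Oasl1, Xaf1 and Adar came first in both orders, but Usp18 had a slope of only −0.034 log2 per h. At the other end Oas2 had a slope of 0.051 and 8.50 h in the authors' deposited table. Samhd1, with a longer half-life there, had a slope of 0.026. For Ifitm3 the finite half-life in the authors' deposited table stands beside an edgeR slope of 0.030 with the deposited divisors, which did not fall. Whether the half-lives were fitted with those divisors is not stated. Of the members under the filter, the authors' deposited table gives 1.58 h for Ifit1 and 1.76 h for Ifit3, which rest on 52 and 12 counts in all, a negative value for Mx1 and none for Gbp2.

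AU-rich elements in 3′ untranslated regions recruit proteins that speed the decay of many immune transcripts, and the Pumilio element serves a similar role. Annotated 3′ UTRs (GENCODE vM21, GRCm38) were available for all 34 members and for 9616 tested genes (88.7%), and motifs were counted on the sense strand. The core pentamer ATTTA was in 16 of the 23 tested members (69.6%), against 68.0% of tested genes. The heptamer TATTTAT, which contains the pentamer, was in 4 of 23 (17.4%), against 28.7%. The nonamer TTATTTATT, which contains both, was in none of the 34 members, against 7.53% of tested genes, and the Pumilio motif TGTANATA was in 5 of 23 (21.7%), against 25.4%. These are descriptions of letters, and longer UTRs hold more of them by length alone. The 3 falling members had no heptamer: the 3′ UTR of Oasl1 is 497 bases long without an ATTTA, that of Adar is 231 bases without one, and that of Dtx3l is 2788 bases with 2. The heptamer windows of the 4 tested members that hold it are shown to set beside their courses, with the heptamer in capitals. They come from Usp18 (chr6:121270611-121270640, plus strand), Oas3 (chr5:120754250-120754279, minus), Ifih1 (chr2:62597248-62597277, minus) and Eif2ak2 (chr17:78854979-78855008 and chr17:78854054-78854083, minus).
Usp18 3′ UTR: caattaagcccTATTTATaagcaaaactat
Oas3 3′ UTR: tgtgtgtgttgTATTTATctgtatgtgtgt
Ifih1 3′ UTR: ttttccagatcTATTTATtttatgtctatg
Eif2ak2 3′ UTR, first copy: cacagacattgTATTTATtaggctatgaaa
Eif2ak2 3′ UTR, second copy: catagtagcctTATTTATaatagccaggag
None of these 4 genes passed the line test. Their median slope was −0.020 log2 per h, against −0.014 for the 19 tested members without the heptamer.

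The rest of the interferon pathway was taken from a list of 115 genes, of which 114 were in the table and 89 passed the filter. Of these, 17 fell (19.1%) and 7 rose (7.87%) in the line test, shares close to the 16.8% and 8.03% of all tested genes (edgeR, adjusted p under 0.05). The joint test placed 40 of the 89 lower and 15 higher, a larger and a smaller share than the 36.1% and 31.6% of all tested genes. The lower calls include Rtp4, which passed the filter only through its untreated value. Of the 10 STAT and IRF factors 8 were lower and 0 higher, and of the 57 further interferon-stimulated genes 17 were lower and 12 higher. The ligands were silent: 7 of 8 interferon genes had 0 counts in every library, and Ifnk had 1 count, at 4 h. Of the 10 STAT and IRF factors 4 fell and 0 rose, with a median slope of −0.12 log2 per h. Of the 10 tested sensors, adaptors and kinases 4 fell and 0 rose (median −0.13), of the 7 receptors and their kinases 2 fell and 1 rose (median −0.056), and of the 5 brakes on signalling 3 fell and 0 rose (median −0.087). The 57 further interferon-stimulated genes that could be tested gave 4 falls and 6 rises with a median of −0.00097, near the members' −0.014. No difference between these lists was tested. Leaving out the 4 h library left 1 fall and 0 rises in the whole pathway list, and 233 falls and 12 rises over all tested genes.

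Among the genes of the pathway list past the line test, the steepest falls were those of Daxx, Slfn2 and Pias1. Other slopes were steeper than that of Pias1 but missed the test. They were −0.49 for Ticam1 (adjusted p = 0.0675), an adaptor of Toll-like receptors, −0.39 for Rtp4 (0.12) and −0.35 for Znfx1 (0.0604). Rtp4 passed the filter only through its untreated value, so its slope rests on the library where it is high. Daxx, a chromatin chaperone and repressor, had 31.2 CPM in untreated cells, 12.3 at 2 h, 6.07 at 4 h and 6.79 at 6 h (slope −0.39 ± 0.081, SE, edgeR adjusted p = 0.0382). Slfn2, a Schlafen protein of leukocytes, had 31.3, 10.7, 6.12 and 6.96 CPM (slope −0.38, adjusted p = 0.0454). Both were lowest at 4 h. Pias1, a SUMO ligase that restrains interferon signalling, had 60.4, 29.7, 17.3 and 16.2 CPM (slope −0.33, adjusted p = 0.0250). The steepest rises past the test were near 0.083 log2 per h each, for the receptor kinase Jak2, for B2m, the light chain of MHC class I, and for Ly6e, a membrane-anchored restriction factor. Jak2 had 47.9, 48.0, 56.1 and 66.9 CPM (adjusted p = 0.0473), a course that, like that of Ifitm3, was level to 2 h and highest at 6 h. B2m had 172, 219, 236 and 245 CPM (adjusted p = 0.0492) and Ly6e had 213, 252, 279 and 301 CPM (adjusted p = 0.0272), both already higher at 2 h. With total counts, ribosomal protein scaling or the deposited divisors, 0 genes of this list rose.

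**Figure D5:**
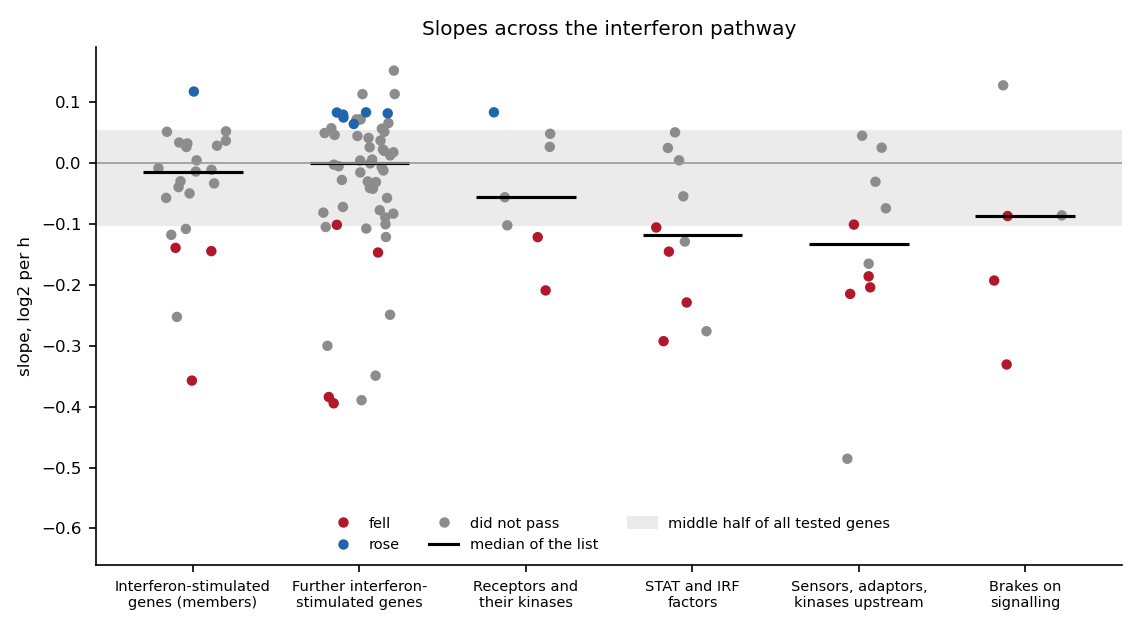
Slopes in log2 per h (edgeR, TMM scaling) of the 23 tested members, left, and of the 89 tested genes of the pathway list by role. Red points fell, blue points rose, grey points did not pass, black bars are medians and the shaded band is the interquartile range of all tested genes. The members and the further interferon-stimulated genes have medians of −0.014 and −0.00097, and the STAT and IRF factors one of −0.12.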

How the data were processed

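One deposited table held, for 41324 genes, the raw counts of the 4 libraries as the authors counted them, a normalized signal per library that the authors made by dividing those counts by 1 number per library, and the authors' half-life and fit values, taken here as a score. STAR 2.5.3a, Subread 1.6.3, featureCounts and the mm10 build are named, per the submitters' processing notes. Strand setting, annotation release and handling of multi-mapping reads: not given in the sources used here.

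Slopes on time were tested with edgeR 4.0.16 (quasi-likelihood, R 4.3.3) on the raw counts with TMM factors, for the 10837 genes with a mean CPM of at least 1, leaving 2 residual degrees of freedom. Bend (time squared) and joint tests (both terms) left 1. P-values were Benjamini-Hochberg adjusted over all genes tested. Percentages of the untreated level carry exact binomial intervals on the counts. Where a library had 0 counts, 3 counts set the limit. CPM per kb used the union of exons in GENCODE vM21. The fits were run on simulated data in which most genes were flat and all had the same dispersion. That run gives no error rates for the real libraries. Alternatives were DESeq2 1.42.0, other scalings, other filters and leaving out each library.

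Members were given by name. They and all lists were chosen with earlier results of these data known. Values in every library were given for members past any test, for the 3 most abundant per length and briefly for the rest, and of the pathway list for the 3 steepest falls and rises at a mean CPM of at least 5. Other genes named were chosen after their values were seen.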

Additional observations from a re-analysis of the deposited data

How the results depend on the processing

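No paired analysis was possible because there was 1 library per time. Leaving out each library in turn gave 233 to 2248 genes that fell and 12 to 1120 that rose over all genes, 0 to 4 and 0 to 2 among the members, and 1 to 23 and 0 to 10 in the pathway list. The lowest values came without the 4 h library. Bend and joint tests could not be repeated this way, since no residual degree of freedom was left. Over all genes the count that fell was 1318 with total counts, 2464 with ribosomal protein scaling and 4963 with the deposited divisors. The count that rose was 205 with total counts, 138 with ribosomal protein scaling, 72 with the divisors and 1529 with DESeq2's Wald test. Among the members 1 fell with total counts and 10 with the divisors, and 0 rose with total counts, ribosomal protein scaling or the divisors. In the pathway list 42 fell with the divisors and 0 rose under these same 3 scalings. Upward bends among the members numbered 0 with total counts, 7 with ribosomal protein scaling, 9 with the divisors and 4 without the filter. In the joint test 3, 12, 19 and 10 members were lower in that order. Under the 3 scalings 7, 1 and 0 were higher, with 1 higher at a mean CPM of at least 10. For the bend and joint tests the shares of all genes in these settings were not counted.

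The slopes of 8 members turned negative with ribosomal protein scaling and with the divisors, in that order: −0.022 and −0.054 for Ifit2, −0.052 and −0.084 for Trim30a, −0.029 and −0.061 for Samhd1, −0.020 and −0.052 for Oas1a, −0.0051 and −0.037 for Oas2, −0.028 and −0.059 for Eif2ak2, −0.024 and −0.056 for Bst2, and −0.0032 and −0.035 for Ifitm2. With total counts Ifih1, Ddx58 and Parp9 turned positive, at 0.016, 0.011 and 0.011. Slopes ranged across 0 when libraries were left out for Usp18 (−0.13 to 0.14), Trim30a (−0.0086 to 0.016), Oas3 (−0.050 to 0.027), Ddx58 (−0.071 to 0.079), Dhx58 (−0.10 to 0.022), Ifih1 (−0.047 to 0.0063) and Parp9 (−0.027 to 0.028). A change of scaling moves every gene of a library alike, so the slopes moved together between scalings. The cause of the other changes was not tested. DESeq2 size factors changed no call of the line test among the members. The 6 h library, with the fewest counts, limits the low members most.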
